A study of Mus musculus with 9 samples.

Results

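Dendritic cells are rare in the liver, and their subsets can be told apart by a small number of transcripts. The 10 genes described here mark the type 1 conventional subset (cDC1: Xcr1, Clec9a, Batf3 and Itgae), all conventional dendritic cells (Flt3 and Zbtb46), the type 2 subset (cDC2: Cd209a and Clec10a), plasmacytoid dendritic cells (Siglech) and dendritic cells that migrate to lymph nodes (Ccr7). They were taken by name from the 24341 genes of the deposited table, and all 10 were found. RNA had been sequenced from bulk liver of wild-type C57BL/6 mice, 48 hours after the agonist CD40 antibody FGK45 (anti-CD40, mice 2, 5 and 9) or in control mice labelled PBS (mice 3, 4, 7, 8, 11 and 12). The comparison asked how activation of CD40, a receptor on antigen-presenting cells, altered liver transcripts. The labels give no age and no batch, and every group carried the same strain and genotype.

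Conventional dendritic cells take up antigen in tissues and present it to T cells. cDC1 depend on the transcription factors BATF3 and IRF8 and are specialised for presenting antigen to CD8+ T cells, whereas cDC2 present mainly to CD4+ T cells, and plasmacytoid dendritic cells are known for making type I interferon. CD40 ligation, normally delivered by T cells, matures dendritic cells, and mature cells carry CCR7, which guides them toward the chemokines CCL19 and CCL21.

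RefSeq start sites on the GRCm38.p6 build were available for 7 of the 10 genes, and the 250 bases before the start site were searched on both strands for letters bound by 4 families of factors. These were NF-kB (GGG and TTTCC with any 2 bases between), IRF (GAAA repeated with any 2 bases between), AP-1 (TGANTCA) and ETS (GGAAGT). The promoters of 3 cDC1 genes are shown because 2 of these genes rose and 1 gave no call, and that of Cd209a because its transcript was seen in the control mice only. Capitals mark the ETS letters, which read ACTTCC where the match is on the other strand. The windows are chr1:191098164-191098413 for Batf3 (plus strand), chr6:129408612-129408861 for Clec9a (plus strand), chr9:123862030-123862279 for Xcr1 (minus strand) and chr8:3748985-3749234 for Cd209a (minus strand).
Batf3: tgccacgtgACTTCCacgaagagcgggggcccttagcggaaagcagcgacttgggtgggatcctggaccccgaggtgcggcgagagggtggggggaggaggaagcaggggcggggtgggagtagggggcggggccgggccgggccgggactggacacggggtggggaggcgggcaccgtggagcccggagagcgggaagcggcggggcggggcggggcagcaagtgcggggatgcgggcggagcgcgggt
Clec9a: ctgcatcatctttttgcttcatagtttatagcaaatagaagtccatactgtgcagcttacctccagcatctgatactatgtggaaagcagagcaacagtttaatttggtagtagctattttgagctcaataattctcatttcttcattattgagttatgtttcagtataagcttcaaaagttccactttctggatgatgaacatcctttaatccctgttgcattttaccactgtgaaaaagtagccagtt
Xcr1: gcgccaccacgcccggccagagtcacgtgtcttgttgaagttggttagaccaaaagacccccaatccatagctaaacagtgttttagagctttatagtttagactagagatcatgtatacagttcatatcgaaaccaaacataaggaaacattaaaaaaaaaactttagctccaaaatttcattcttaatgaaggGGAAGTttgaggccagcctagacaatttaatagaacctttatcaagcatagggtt
Cd209a: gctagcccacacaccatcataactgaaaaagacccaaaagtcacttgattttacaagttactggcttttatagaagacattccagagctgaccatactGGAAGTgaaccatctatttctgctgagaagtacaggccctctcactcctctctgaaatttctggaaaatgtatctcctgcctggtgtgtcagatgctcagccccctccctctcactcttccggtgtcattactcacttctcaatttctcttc
ETS letters lay at -241 to -236 from the start site in Batf3, at -55 to -50 in Xcr1 and at -152 to -147 in Cd209a, and Clec9a held none of the 4 motifs. They were also present in Flt3 at -75 to -70 and in Siglech at -156 to -151. AP-1 letters were found only in Zbtb46, at -61 to -55 from a RefSeq start site that lies inside the gene's deposited span. Of all 32851 promoter windows, 19.7% held the ETS letters, 6.75% the AP-1 letters, 2.98% the IRF letters and 1.41% the NF-kB letters. Neither NF-kB nor IRF letters were found in the 7 windows. Clec10a, Itgae and Ccr7 were not matched.

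FPKM, which scale the fragments of a gene by transcript length and library size, were used as deposited, with 0.01 as the lowest value the table gives. The libraries read only the 3′ end of transcripts, so values are compared between mice for the same gene and not between genes. Steps between low values gave the reads behind a gene as the smallest whole numbers that fit, for all 10 genes. By these steps relative depth was 0.991 to 1.13 after anti-CD40 and 0.870 to 1.06 in the controls, while the absolute depth is unknown. Hepatocyte markers were present in every liver, with a summed FPKM of 18660 to 22350 over 9 markers after anti-CD40 and 25220 to 57610 in the controls. Anti-CD40 mouse 5 also held exocrine pancreas transcripts, with a summed FPKM of 1146 over 10 markers. Among the control mice, mouse 4 had the highest value for 7 of the 10 dendritic cell genes.

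After anti-CD40, 6 of the 10 genes rose, of which Ccr7 rose 11.0-fold and Batf3 2.76-fold, and Flt3, Clec9a, Zbtb46 and Siglech rose by between 1.59-fold and 2.21-fold. Only Batf3 and Ccr7 kept their call under every alternative run, and the count of 6 fell to 2 without anti-CD40 mouse 2 or 9, 3 without mouse 5, 3 without the filter and 2 with quantile normalization. Xcr1, a cDC1 marker, and Clec10a, a cDC2 marker, gave no call. Cd209a was at the floor in all 3 anti-CD40 mice and above it in all 6 control mice. Itgae was lower in mean, but its groups overlapped. Genes were called at an adjusted p under 0.05 (limma on log2(FPKM + 0.1), Benjamini-Hochberg over the 13807 genes whose FPKM averaged 0.1 or more), and by this rule 23.5% of all genes tested were higher, 21.7% lower and 45.1% either. These were 3240 and 2990 genes, against 5635 and 1647 when each mouse was rescaled without the acute phase genes Saa1, Saa2 and Saa3. The filter was not neutral among these 10 genes. Cd209a and Itgae, both lower in mean after anti-CD40, fell under it with a mean over all mice of 0.0912 and 0.0993, whereas Flt3 passed at 0.103 through its anti-CD40 values. The 6 calls among 8 tested genes are therefore given as a description. The median log2 fold change of the 8 was 0.78, beside 0.0056 over all genes tested. No tested gene was lower by limma (0 also at an unadjusted p under 0.05), and without the filter 1 gene, Cd209a, had an unadjusted p under 0.05 downward. In bulk liver, fewer cells of a type and less RNA per cell cannot be told apart. The p-values measure the spread between these mice.

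**Figure D1:**
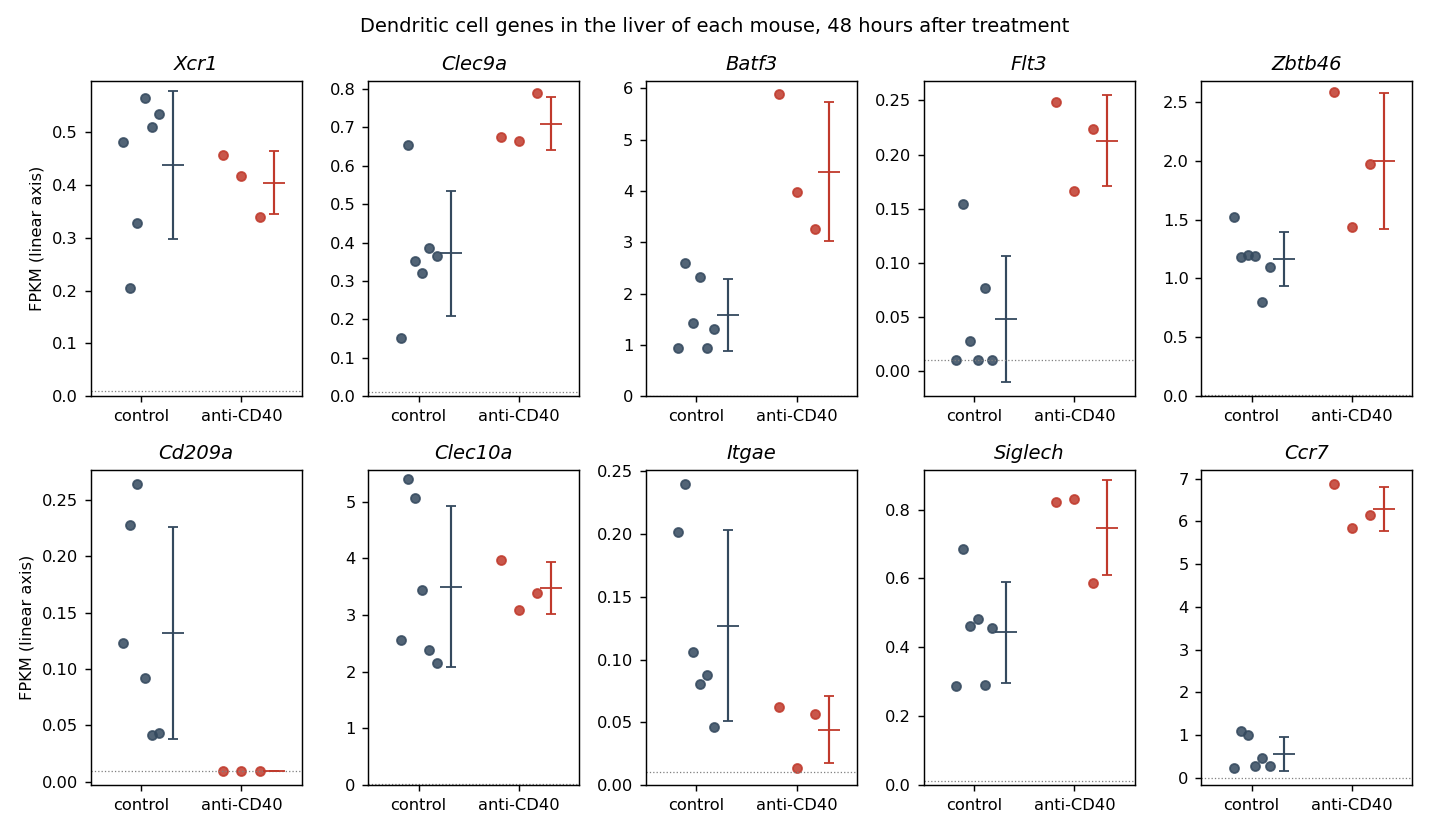
FPKM of the 10 dendritic cell genes in each mouse, on a linear axis of its own for each gene; points are single mice (6 control, 3 anti-CD40), the bar beside them is the mean with its SD, and the dotted line is the floor of 0.01. The 3 anti-CD40 mice lie above every control mouse for Clec9a, Batf3, Flt3 and Ccr7, and at the floor for Cd209a.

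Of the 4 cDC1 genes, Clec9a and Batf3 rose, Xcr1 gave no call and Itgae fell under the filter. Xcr1, on the minus strand at chr9:123852315-123862029 (mm10), encodes the receptor for the chemokine XCL1 and is the most selective cDC1 surface marker. Anti-CD40 mice 2, 5 and 9 had 0.456, 0.417 and 0.339 FPKM. In the control mice it ran from 0.205 through a median of 0.495 to 0.565. All anti-CD40 mice thus lay inside the control range, and the values rested on 28 to 43 reads and on 18 to 41 reads per mouse. On the log2 scale Xcr1 differed by -0.049 ± 0.26 (SE, 3 against 6 mice, adjusted p = 0.896), with a 95% interval of the fold from 0.643 to 1.45.

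Clec9a, on the plus strand at chr6:129408862-129424764, encodes a receptor by which cDC1 sense the actin of dead cells. It measured 0.675, 0.665 and 0.789 in the 3 anti-CD40 mice. The control mice ran from 0.153 through a median of 0.359 to 0.654, the highest being mouse 4. The groups did not overlap, although mouse 4 came close to the lowest anti-CD40 mouse. Clec9a rose by 0.85 ± 0.29 on the log2 scale (adjusted p = 0.0348; exact permutation p = 0.0238, the smallest that 84 splits of the mice can give). It rested on 38 to 42 reads per anti-CD40 mouse and 8 to 37 per control mouse, and the call was lost without any single anti-CD40 mouse (adjusted p 0.0761 to 0.114), without control mouse 7 (0.0536) or without control mouse 8 (0.0577). Clec1b, a platelet and sinusoidal cell receptor gene that overlaps Clec9a on the same strand, measured 17.2 to 22.8 and 17.4 to 24.8 FPKM in the respective groups.

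Batf3, on the plus strand at chr1:191098414-191108943, encodes the factor that cDC1 need for their development, and activated T cells and monocyte-derived cells can also express it. FPKM values of 5.89, 3.99 and 3.26 were seen after anti-CD40, and the control mice spanned 0.933 to 2.59 with a median of 1.37. The lowest anti-CD40 mouse was above the highest control mouse. Batf3 rose by 1.47 ± 0.34 on the log2 scale (adjusted p = 0.00497), from 9 to 27 reads per control mouse to 32 to 66 reads. Its call was kept under all 19 alternatives, with log2 fold changes of 1.07 to 1.82.

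Itgae, on the plus strand at chr11:73090595-73147449, encodes the integrin chain CD103, which is carried by cDC1 of peripheral tissues and by resident T cells. The anti-CD40 mice had 0.0621, 0.0132 and 0.0567 FPKM, from 5, 1 and 4 reads. Control values went from 0.0458 through a median of 0.0968 to 0.240, from 3 to 18 reads. Mouse 12, the lowest control mouse, fell below 2 anti-CD40 mice, so that the groups overlapped. The mean difference of -0.61 on the log2 scale had an exact permutation p of 0.0714 (3 against 6 mice). Leaving out control mouse 12 ended the overlap and gave 0.0357, the smallest that 3 against 5 mice allow. With other control mice left out, the exact permutation p ran up to 0.107. The table gives Itgae and Gsg2 (Haspin, a kinase gene nested on the opposite strand) a shared position, and Gsg2 measured 0.331 to 0.346 FPKM after anti-CD40 and 0.0203 to 0.157 in the control mice. The strand setting used in counting was not given in the sources used here.

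Flt3 and Zbtb46 are shared by conventional dendritic cells. Flt3, on the minus strand at chr5:147330742-147400489, encodes the receptor for FLT3 ligand, the growth factor on which dendritic cells and their progenitors depend. It reached 0.248, 0.167 and 0.224 FPKM in anti-CD40 mice 2, 5 and 9. Of the 6 control mice, 3 were at the floor, the median was 0.0190, and mouse 4 was highest with 0.154. The groups did not overlap, on 12 to 19 reads per anti-CD40 mouse against 0 to 11. The log2 fold change was 1.15 ± 0.31 (adjusted p = 0.0127), and the ratio of the mean FPKM was 4.42. Flt3 passed the filter through its anti-CD40 values and fell under it without any single anti-CD40 mouse, so its call is a description. The size depended on the pseudocount, between 0.21 with 1 FPKM and 2.45 with 0.01 FPKM, and quantile normalization ended the call (0.83, adjusted p = 0.0538).

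Zbtb46, on the minus strand at chr2:181390886-181459426, encodes a transcription factor of conventional dendritic cells that endothelial cells also express. Its values were 2.59, 1.44 and 1.98 FPKM after anti-CD40. In the control mice it spanned 0.803 to 1.52 around a median of 1.19. Mouse 3, the highest control mouse, lay above anti-CD40 mouse 5, and the other 2 anti-CD40 mice lay above all control mice. Zbtb46 rose by 0.71 ± 0.22 on the log2 scale (adjusted p = 0.021; exact permutation p = 0.0476). Leaving out anti-CD40 mouse 2 (0.52, adjusted p = 0.118) or mouse 9 (0.70, adjusted p = 0.0662) ended the call. Of 10 endothelial markers, 2 were higher (1 to 3 when a mouse was left out) and 2 lower (0 to 3), with summed FPKM of 165.5 to 178.7 after anti-CD40 and 119.6 to 161.4 in the control mice, and their part in the result was not tested.

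Of the 2 cDC2 lectin genes, Cd209a was not detected after anti-CD40 and Clec10a gave no call. Cd209a, on the minus strand at chr8:3743395-3748984, encodes a C-type lectin related to human DC-SIGN and is carried by cDC2 and monocyte-derived dendritic cells. It was at the floor of 0.01 FPKM, with 0 reads, in all 3 anti-CD40 mice. The control mice ran from 0.0414 through a median of 0.107 to 0.264, on 3, 6, 7, 2, 1 and 1 reads in mice 3, 4, 7, 8, 11 and 12. Thus every control mouse had at least 1 read, 20 in all, and at that rate 10.9 reads would have been counted in the anti-CD40 mice. With a floor of 3 reads over the anti-CD40 group in place of the 0 seen, the lower bound of the drop was 3.64-fold. This figure allows for counting error in the anti-CD40 group only. It takes the 20 control reads as exact and leaves out the spread between mice. The exact permutation p was 0.0238 (3 against 6 mice), and limma without the filter gave an adjusted p of 0.0727. Among the genes with a mean FPKM under 0.1 that were above the floor in all 6 control mice, 16 of 385 (4.16%) were at the floor in all 3 anti-CD40 mice, as Cd209a was. The Cd209 genes are close copies of each other, so the division of reads among them is uncertain.

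Clec10a, on the plus strand at chr11:70166623-70170836, encodes the galactose-type lectin MGL1, found on cDC2 and on macrophages. It measured 3.98, 3.08 and 3.39 FPKM in the anti-CD40 mice. The control mice lay between 2.15 and 5.40 with a median of 3.0. All anti-CD40 mice fell within the control range, on 83 to 114 reads against 50 to 144. The log2 fold change was 0.077 ± 0.30 (adjusted p = 0.852), and the 95% interval of the fold was 0.667 to 1.67. Its close relative Mgl2 measured 0.01, 0.01 and 0.115 FPKM after anti-CD40 and 0.0787 to 0.466 in the control mice (log2 fold change -1.04 ± 0.42, adjusted p = 0.0641).

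Siglech, on the plus strand at chr7:55768178-55778833, encodes a sialic acid-binding receptor of plasmacytoid dendritic cells that signals through the adaptor DAP12. The anti-CD40 mice had 0.823, 0.831 and 0.587 FPKM. Control values ran from 0.287 through a median of 0.459 to 0.685. Mouse 4 lay above anti-CD40 mouse 9, and the other 2 anti-CD40 mice exceeded every control mouse. Siglech rose by 0.67 ± 0.25 on the log2 scale (adjusted p = 0.0485; exact permutation p = 0.0476), on 25 to 40 reads against 12 to 31. Siglech was close to the threshold and kept its call under 7 of 18 alternatives, and leaving out any control mouse other than mouse 4, or any anti-CD40 mouse, ended it (adjusted p 0.0526 to 0.155).

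Ccr7, on the minus strand at chr11:99144199-99155077, encodes the homing receptor of mature dendritic cells, and naive T cells and B cells also carry it. Levels of 6.87, 5.86 and 6.14 FPKM were measured in anti-CD40 mice 2, 5 and 9. The control mice spanned 0.244 to 1.098 with a median of 0.376. Even control mouse 4, the highest, was far below the lowest anti-CD40 mouse, on 205 to 262 reads against 8 to 39. Ccr7 rose by 3.46 ± 0.42 on the log2 scale (11.0-fold, 95% interval 5.79 to 21.0, adjusted p = 8.93e-05) and kept its call under all 19 alternatives (2.25 to 3.80). Markers of the other cells that carry CCR7 were higher too. All 9 B cell markers tested were higher, with a summed FPKM of 35.8 to 52.9 after anti-CD40 and 2.36 to 9.996 in the controls. Of 11 T cell markers, 10 were higher, with a summed FPKM of 13.7 to 16.3 against 3.69 to 6.47, and the count was 5 without anti-CD40 mouse 2 and 6 without mouse 9, without the filter or with quantile normalization. None of these T cell markers was at the floor in every mouse of a group. Among the B cell markers, Pax5 was not tested. It was at the floor in all control mice and in 2 of the 3 anti-CD40 mice, with 0.0901 FPKM in mouse 2. Of the markers called higher, 2 B cell markers and 1 T cell marker had a control mean under 0.1. They passed the filter only through the anti-CD40 mice, so these counts are descriptions. The part of B cells and T cells in the rise of Ccr7 was not tested.

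**Figure D2:**
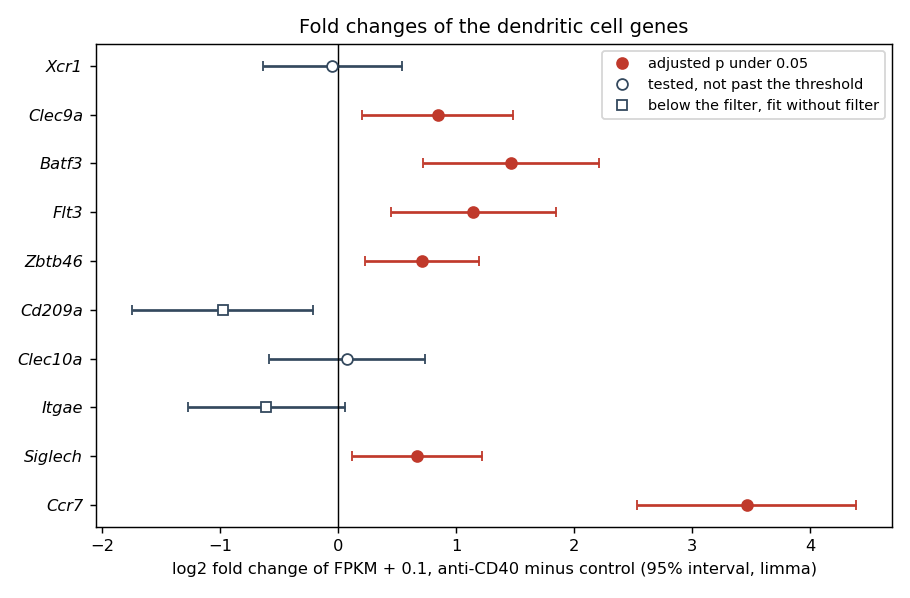
Log2 fold change of FPKM + 0.1 (anti-CD40 minus control) with its 95% interval from limma for each dendritic cell gene; filled circles passed an adjusted p of 0.05, open circles did not, and squares are the 2 genes below the filter, taken from the fit without a filter. Ccr7 stands apart at 3.46, and the interval of Xcr1 and of Clec10a includes 0.

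Of the 8 tested genes, 4 had every anti-CD40 mouse above every control mouse, a pattern seen in 22.7% of all genes tested. None had every anti-CD40 mouse below, as 19.6% did. The filter shaped both counts, so they are descriptions. Cd209a, with every anti-CD40 mouse below every control mouse, fell under the filter and was not counted. Flt3, which is among the 4, passed the filter through its anti-CD40 values. The differences among the genes were tested within each mouse, as the log2 value of one gene minus that of another, over 8 pairs. The scaling of a library cancels in such a difference, apart from the pseudocount. None of the 8 passed an adjusted p of 0.05 by the exact permutation test, whose smallest unadjusted value here is 0.0238. After adjustment over 8 pairs, at least 4 pairs would have to reach that value for any to pass, so that a single pair could not pass alone. Ccr7 minus Zbtb46 was -1.11 ± 0.89 (SD, n = 6) in the control mice and 1.64 ± 0.29 (n = 3) after anti-CD40, a shift of 2.75 (exact p = 0.0238, adjusted p = 0.0952). Batf3 minus Xcr1 shifted by 1.52 (exact p = 0.0714, adjusted p = 0.143) and Clec9a minus Xcr1 by 0.90 (exact p = 0.119, adjusted p = 0.190). Cd209a minus Clec10a shifted by -1.05 (exact p = 0.0238, adjusted p = 0.0952) and Clec10a minus Mgl2 by 1.12 (exact p = 0.0476, adjusted p = 0.127). For Itgae minus Xcr1, Siglech minus Flt3 and Flt3 minus Zbtb46 the adjusted p ran from 0.222 to 0.310.

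Among 10 ligands and partners of these genes, 6 were higher and 1 lower. Irf8 and Itgb7, both higher, are counted again in the list of other cDC1 genes below. Xcl1, the XCR1 ligand made by NK and CD8+ T cells, rose from 1.504 to 3.94 FPKM in the control mice to 9.60 to 11.9 (log2 fold change 2.20 ± 0.29, adjusted p = 0.000155), while Xcr1 itself gave no call. Flt3l, which encodes the FLT3 ligand, measured 17.2 to 21.5 FPKM after anti-CD40 and 7.19 to 21.6 in the control mice, with no call (0.43 ± 0.29, adjusted p = 0.260). Of the CCR7 ligands, Ccl19 rose from a median of 5.74 FPKM in the control mice to 94.1 to 110.0 (3.91 ± 0.34, adjusted p = 1.13e-05). Ccl21a measured 0.277 to 1.58 FPKM against 0.267 to 2.60 and gave no call, at a position it shares with another gene. Ackr4, the scavenging receptor that removes CCL19 and CCL21, fell from 1.86 to 4.53 FPKM to 0.176 to 0.308 (-3.13 ± 0.26, adjusted p = 6.97e-06), also at a shared position.

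For the integrin chain of Itgae, the partner chain Itgb7 rose to 4.20 to 4.67 FPKM from 0.814 to 1.58 (1.89 ± 0.19, adjusted p = 3.12e-05), and the bound cadherin Cdh1 gave no call (0.48 ± 0.24, adjusted p = 0.123). Irf8, the factor that works with BATF3 in cDC1 and is also needed by plasmacytoid cells and monocytes, rose from 3.79 to 6.31 FPKM to 23.2 to 24.6 (2.23 ± 0.17, adjusted p = 5.45e-06). Jun, whose product pairs with BATF3, rose by 1.75 ± 0.30 (adjusted p = 0.00091). Tyrobp, which encodes DAP12, rose by 1.64 ± 0.20 (adjusted p = 9.05e-05), and DAP12 serves many receptors of NK and myeloid cells.

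Other transcripts of the same subsets were counted from lists, and the counts are descriptions, since genes with a control mean under 0.1 passed the filter only through the anti-CD40 mice. There was 1 such gene among those called higher in each of the other cDC1, conventional and plasmacytoid lists, and there were 3 in the migratory list. Of 12 other cDC1 genes tested, 8 were higher and 2 lower (median log2 fold change 0.96). The higher count was 5 without anti-CD40 mouse 2 or without mouse 5. Among the higher genes, Wdfy4, needed for cross-presentation, rose from 0.390 to 0.741 FPKM to 1.79 to 2.38, at a position it shares with another gene. The 2 lower were Cadm1 (-0.73 ± 0.11, adjusted p = 0.000456), also at a shared position, and Cxx1a (-0.71 ± 0.23, adjusted p = 0.0273). Of 13 other cDC2 genes, 6 were higher and 2 lower (median 0.40), but Irf4, Clec4a4 and Ltb, 3 of the 6, had a control mean under 0.1 and passed the filter through their anti-CD40 values, and both lower genes, Cd207 and Cd209d, passed through their control values. Sirpa, a cDC2 and macrophage receptor gene, rose from 8.31 to 17.1 FPKM to 34.7 to 47.7 (1.88 ± 0.22). Ltb, a lymphotoxin gene at a position shared with another gene, rose by 2.23 ± 0.32. Cd207, which encodes langerin, fell from 1.195 to 2.48 FPKM to 0.01, 0.0341 and 0.145 (-3.39 ± 0.29, adjusted p = 9.3e-06). Cd209d, a relative of Cd209a, was also at the floor in all 3 anti-CD40 mice and measured 0.0738 to 0.338 FPKM in the control mice (adjusted p = 0.0243). Cd209c was at the floor in all 9 mice. Cd209b was detected in all anti-CD40 mice, with 0.0533, 0.113 and 0.152 FPKM on 2, 4 and 5 reads, against 0.0929 to 0.295 in the control mice, and gave no call (adjusted p = 0.0705).

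Among 14 other genes of conventional dendritic cells, 11 were higher and 2 lower (median 2.31). The 2 lower were Dpp4 (-0.98 ± 0.12, adjusted p = 8.12e-05) and Nectin1 (-0.75 ± 0.20, adjusted p = 0.0121). Kit, called higher, is also in the blood progenitor list described below. Itgax, the gene of CD11c, rose from 0.110 to 0.404 FPKM to 6.10 to 6.49, a log2 fold change of 4.21 ± 0.25. Slamf7 and H2-Eb2, the latter a class II histocompatibility gene, rose by 3.74 ± 0.28 and 3.38 ± 0.31. Slamf7 shares its position with another gene. Of 12 other plasmacytoid genes, 7 were higher and 1 lower (median 0.80). The lower gene was Atp1b1 (-0.57 ± 0.17, adjusted p = 0.0192), at a shared position. Bst2, Ccr9, Cox6a2 and Zeb2 gave no call. Ly6d and Spib, which B cells also express, rose by 5.17 ± 0.35 and 3.50 ± 0.36. Klk1 rose by 2.88 ± 0.66, and its value of 11.8 FPKM in anti-CD40 mouse 5, the mouse with pancreas transcripts, stood against 1.38 and 1.42 in the other 2.

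The mature migratory list had the highest median of the dendritic cell lists, 2.53 over 17 tested genes, of which 14 were higher and 0 lower by limma. Ccl22, a chemokine gene of mature dendritic cells, rose from 0.01 to 0.120 FPKM to 2.50 to 3.65 (4.48 ± 0.27). Cd40 rose from 0.723 to 2.13 FPKM to 20.1 to 30.9 (4.10 ± 0.29), and Samsn1, an adaptor gene of haematopoietic cells, rose by 4.01 ± 0.33. Ccl17, Socs2 and Il15ra gave no call.

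**Figure D3:**
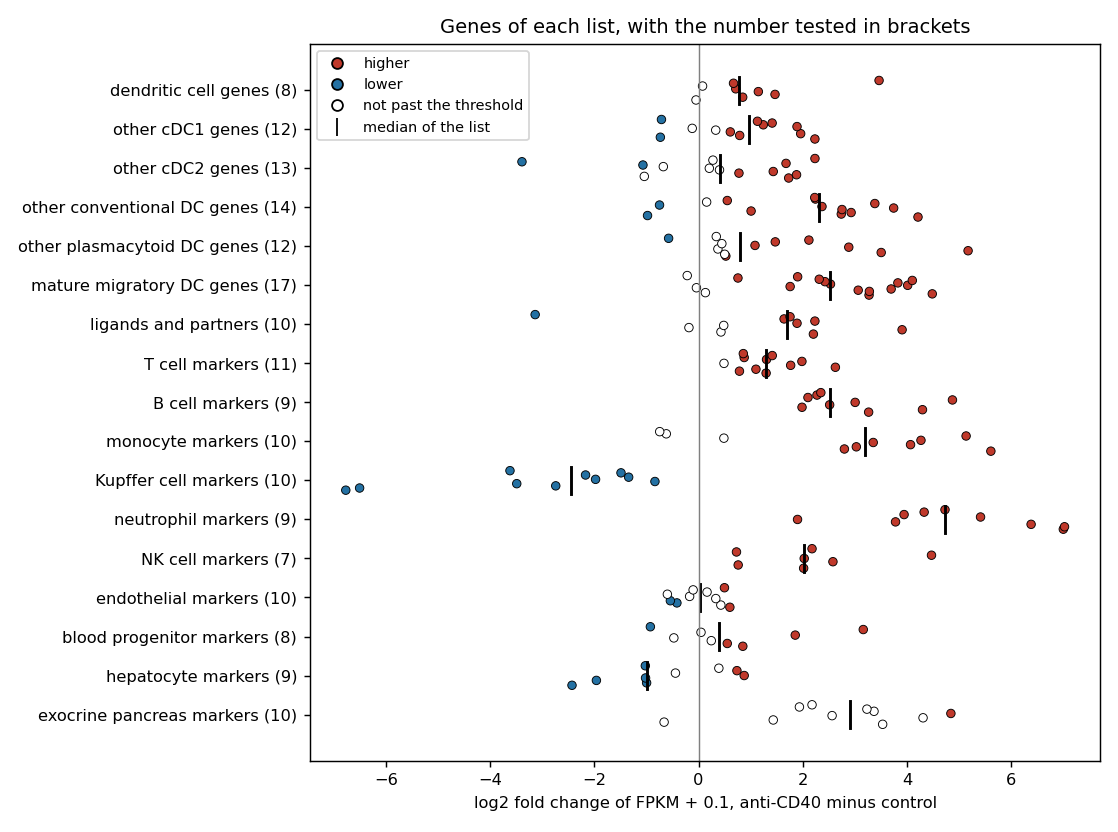
Log2 fold change of FPKM + 0.1 (anti-CD40 minus control) of each tested gene, by list, with red for higher, blue for lower and white for genes past no threshold, and a bar at the median of each list. The migratory list has a median of 2.53, the 8 tested dendritic cell genes one of 0.78 and the Kupffer cell markers one of -2.45. The migratory list is not the highest shown, with medians of 4.73 for neutrophil, 3.19 for monocyte and 2.515 for B cell markers.

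Many of these transcripts are shared with cells whose markers also moved. Monocyte markers were higher for 7 of 10, with a summed FPKM of 580.4 to 773.1 after anti-CD40 and 92.1 to 156.6 in the control mice. All 9 neutrophil markers tested were higher (4231 to 5221 against 19.2 to 156.7), as were all 7 NK cell markers tested (67.7 to 96.4 against 3.91 to 14.2). Of the untested NK cell markers, Klra8 was at the floor in all anti-CD40 mice and Klra4 in all 9 mice, at a position that the table gives to 17 genes. All 10 Kupffer cell markers were lower, with a summed FPKM of 116.1 to 127.5 against 503.7 to 797.6. Of 8 blood progenitor markers, where Flt3 is also expressed, 4 were higher and 1 lower, with sums of 17.5 to 19.2 and 18.9 to 22.1. That count of 4 became 1 without anti-CD40 mouse 9 and 2 without anti-CD40 mouse 2 or 5, without control mouse 8 or 12, without the filter or with quantile normalization. Hepatocyte markers were higher for 2 of 9 (1 without anti-CD40 mouse 5) and lower for 5 (3 without anti-CD40 mouse 2), and 1 of 10 exocrine pancreas markers was higher (7 without anti-CD40 mouse 2). Control mouse 4, the highest control mouse for most of the dendritic cell genes, was also the highest control mouse in the sums of the B cell, NK cell and neutrophil markers, whereas mouse 7 was highest for the T cell and monocyte sums, mouse 8 for the endothelial sum and mouse 12 for the Kupffer cell sum. Among markers called higher, 3 neutrophil, 2 blood progenitor, 1 monocyte, 1 NK cell and 1 exocrine pancreas marker had a control mean under 0.1. These passed the filter only through the anti-CD40 mice, so the marker counts are descriptions. The part of these cell types in the results was not tested.

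The genes most like each non-overlapping, called gene were found by the root mean square difference of log2 values over the 9 mice, each gene first set to its control mean. For Clec9a they were Lrp11 (0.14), 2900009J06Rik (0.15), whose position is shared by 2 genes, and Abcg3 (0.19). Batf3 was nearest to H2-DMb1 (0.25), Ifit1bl2 (0.25) and Dennd1c (0.26), and Flt3 to Pxk (0.20), Cd38 (0.20) and B430306N03Rik (0.21). Ccr7 was nearest to Lsp1 (0.29), whose position is shared by 3 genes, and then to Asf1b and Ffar2 (0.34 each). These are descriptions over the same mice.

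**Figure D4:**
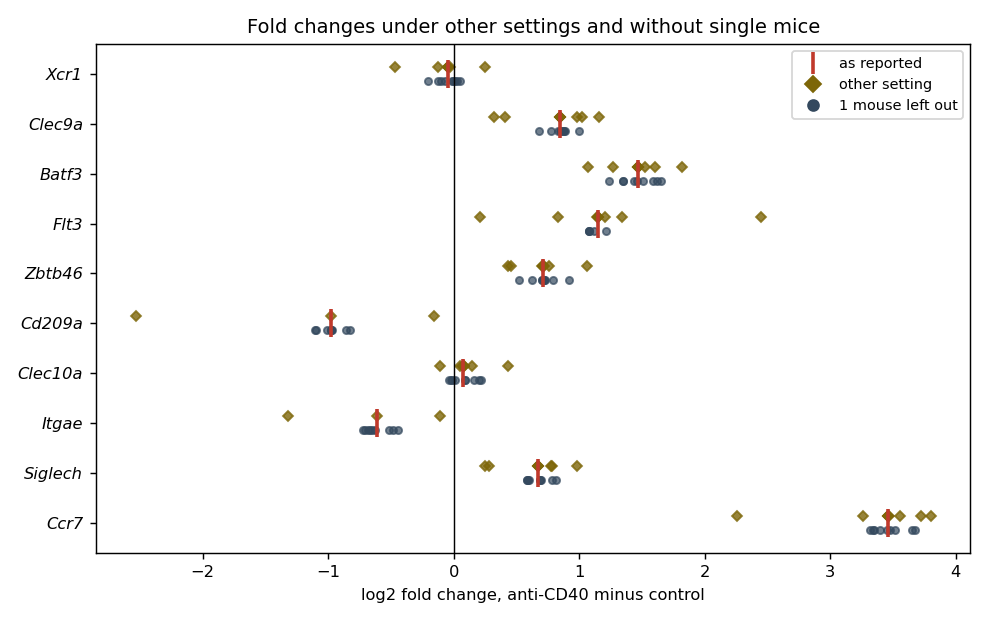
Log2 fold change of each dendritic cell gene as reported (red bar), under other settings (diamonds) and with 1 mouse left out (circles). Batf3 stays between 1.07 and 1.82 and Ccr7 between 2.25 and 3.80, whereas Xcr1 and Clec10a lie on both sides of 0.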

How the data were processed

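Liver RNA from 9 mice was sequenced by the authors with QuantSeq 3′ FWD libraries on an Illumina sequencer, aligned with STAR to mm10 and quantified with Cufflinks and CuffDiff. The authors deposited FPKM, 1 value per gene and mouse. The annotation and strand setting were not given in the sources used here. The 15 genes with a failed estimate were left out, no scaling was added, and mice were grouped by their labels.

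The deposited FPKM were tested as log2(FPKM + 0.1) with limma 3.58.1 in R 4.3.3 (lmFit, eBayes with a trend, 2-sided) over the 13807 genes whose FPKM averaged 0.1 or more. Benjamini-Hochberg adjusted p under 0.05 was a call, and fold changes of low genes are understated on this scale. Single genes and within-mouse differences used a 2-sided exact permutation test over 84 splits of the mice, with smallest p 0.0238. Python 3.11.15 with numpy 2.4.6, pandas 2.3.3, scipy 1.17.1 and matplotlib 3.10.9 did the rest. Of 3449 low genes, 92.75% gave whole reads in every mouse (tolerance 0.06 reads, rising by 0.0003 per read to at most 0.15). A count test was not run, since reads were recovered for low genes only. The scripts were tested on simulated data.

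The 10 genes and the lists were chosen with earlier results of these data known. Named were these 10 genes, all ligands and partners, the 3 genes of largest fold change in each other dendritic cell list, and the 3 nearest genes of each non-overlapping, called gene. Mgl2 belonged to a planned pair, and Cd209b, Cd209c, Cd209d, Clec1b, Gsg2, Irf4, Clec4a4, Ccl17, Socs2 and Il15ra were named after their values were seen. So were Cadm1, Cxx1a, Dpp4, Nectin1, Kit, Atp1b1, Bst2, Ccr9, Cox6a2 and Zeb2. Trac, Ly6g and Tf were not matched by name. Promoters came from RefSeq.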

Additional observations from a re-analysis of the deposited data

Results flagged for a closer look

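In the 6 control mice, 41 sets of values were checked for a mouse far from the others. The sets were single genes and within-mouse differences between genes. Chance alone would give about 2.05 sets with such a mouse. There were 2. For Cd207, control mouse 7 was highest at 2.48 FPKM. On the log2 scale its gap to the next mouse took 0.686 of the group's whole range, past the 95% limit of Dixon's test. For Sirpa, control mouse 4 was highest at 17.1 FPKM, with a gap of 0.652 of the range on the log2 scale.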

How the results depend on the processing

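Batf3 and Ccr7 kept their call under all 19 alternatives each. The 6 members called higher became 3 with a mean FPKM of at least 1. There Clec9a, Flt3 and Siglech were not tested, and Batf3, Zbtb46 and Ccr7 kept their call. The count became 3 without a filter and 2 with quantile normalization. When a mouse was left out it was 2 to 5 (2 without anti-CD40 mouse 2, 3 without mouse 5, 2 without mouse 9). Without a filter, Clec9a (0.85, adjusted p = 0.0868), Zbtb46 (0.71, 0.0536), Siglech (0.67, 0.106) and Cd209a (-0.98, 0.0727) were not called, where more genes were tested. Under quantile normalization, which moved the median of all genes to -0.091, neither were Clec9a (0.41), Flt3 (0.83), Zbtb46 (0.44) and Siglech (0.25), and Clec10a turned to -0.11. A pseudocount of 0.01 ended the Siglech call (0.79, adjusted p = 0.0545). With a pseudocount of 1, Flt3 minus Zbtb46 turned to -0.25 and Siglech minus Flt3 to 0.067. Rescaling without Saa1, Saa2 and Saa3 moved the median of all genes to 0.35, with 5635 genes higher and 1647 lower, and Xcr1 to 0.25. When a mouse was left out, the ranges were -0.20 to 0.047 for Xcr1, -0.041 to 0.22 for Clec10a, 0.68 to 0.996 for Clec9a, 0.52 to 0.92 for Zbtb46, 0.58 to 0.81 for Siglech, -1.10 to -0.83 for Cd209a and -0.72 to -0.45 for Itgae. Xcr1 turned to 0.047 without anti-CD40 mouse 9, to 0.0091 without control mouse 12 and to 0.023 without control mouse 8. Clec10a turned to -0.021 without anti-CD40 mouse 2, -0.013 without control mouse 11 and -0.041 without control mouse 12. Flt3 fell under the filter and had no value in 4 of the 9 cases. The cause was not tested. No paired analysis was possible because the groups share no mouse number. Low reads limit Cd209a, Itgae and Flt3 most.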
